A study of Mus musculus with 8 samples.

Results

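The Geminin mutant neural tube was examined on 4 of the 8 microarrays of the series: the neural tube arrays of 2 mutant and 2 wild-type mouse embryos, chosen by their sample titles. Geminin is the protein product of the Gmnn gene. The labels give strain C57BL/6 and stage E10.5 for all embryos, the genotype "wild type" for the controls, and "fl/fl; cre/o" for the mutants, the usual notation for 2 floxed alleles and a Cre transgene. They name neither the promoter that drives Cre, nor the deleted part of Gmnn, nor the axial level captured. Neural tube was cut out by laser capture microdissection, and each embryo also gave 1 array of paraxial tissue. The paraxial arrays are used here in the test and as values given beside some results.

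Geminin binds the licensing factor Cdt1 during S and G2 phase and keeps it from loading the MCM helicase again onto origins that have already fired. It also binds chromatin regulators, among them SWI/SNF and Polycomb proteins, and some homeodomain proteins, and has been studied for its part in neural fate and in the balance between dividing progenitors and neurons. At this stage the neural tube holds cycling progenitors around the lumen, arranged in domains along the dorsoventral axis under Shh, BMP and retinoic acid signals, and newly made neurons at its outer edge. Hox genes mark position along the head-to-tail axis.

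All values below are processed red-channel signals on a log2 scale after each array was set to a common 75th percentile (scaled log2 signal), so a step of 1 is a doubling, and each probe is compared only with itself. Of 55681 probes, between 73.5% and 74.0% were well above background on the mutant neural tube arrays and between 77.6% and 77.9% on the wild-type ones, and no spot was saturated. Across all genes tested, the wild-type arrays correlated at 0.953 with each other and the mutant arrays at 0.961, and the median SD of a gene between replicates was 0.288 and 0.264. The 18 neural progenitor markers were above background on all 4 arrays. Over all 8 arrays, their level (the mean over members of the signal minus the gene's mean) lay between 0.43 and 0.51 on the neural tube arrays and between -0.85 and -0.14 on the paraxial ones. Levels of lists below are taken in the same way over the 4 neural tube arrays. Mutant 1 stood apart from the other 3 arrays in neuronal and posterior Hox genes, described below. Mutant 2 stood apart in sex-linked genes: Xist, the X-inactivation transcript, was at 14.38 and 14.77 in wild types 1 and 2, 14.15 in mutant 1 and 7.25 in mutant 2, and the Y-linked Kdm5d was at 4.54, 5.01, 6.85 and 10.24 in the same order.

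Mutant minus wild-type differences were tested for 28829 genes with limma, with the 4 tissue-by-genotype groups in 1 fit and the embryo as a random block. At an adjusted p of 0.05, 0 genes were called (0%), and the smallest adjusted p was 0.433. At an unadjusted p of 0.05, 437 genes stood higher (1.52%) and 611 lower (2.12%), 1048 in all, and the trend-and-robust form of the test gave 648 and 426. Separation of the groups was common: in 4758 genes (16.5%) both mutant arrays lay above both wild-type arrays, and in 4441 (15.4%) both lay below. Of all genes, 49.2% had a higher mutant mean. No gene below therefore passed the test, no list was tested, and the differences are given as values. The p-values rest on a spread between replicates that is pooled over the 4 tissue-by-genotype groups, not on the neural tube arrays alone. It comes from 2 embryos per genotype.

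The direction of the difference moved with how bright a gene was. When genes were divided into 5 equal bins of mean signal, in the dimmest bin the median difference was -0.22 and 34.7% stood higher in the mutants, while in the brightest bin it was 0.18 and 72.6% stood higher. The share of genes with both mutants above both wild types rose from 9.12% in the dimmest bin to 29.3% in the brightest. The share with both below fell from 26% to 5.52%. The shares over all genes given beside lists below (16.5% and 15.4%) do not allow for signal. Here and below, arrays were also compared by replicate number, which equals the slide row and does not pair embryos across genotypes. Between mutant 1 and wild type 1 the medians ran from -0.405 to 0.263 over the bins, and between mutant 2 and wild type 2 they lay between -0.00219 and 0.105. Correspondingly, 475 genes were well above background on both wild-type and neither mutant array, against 19 the other way. The part of signal strength in the list results was not tested, and medians after quantile or cyclic loess normalization, which even out such a trend between arrays, are given beside many of the lists they move.

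**Figure D1:**
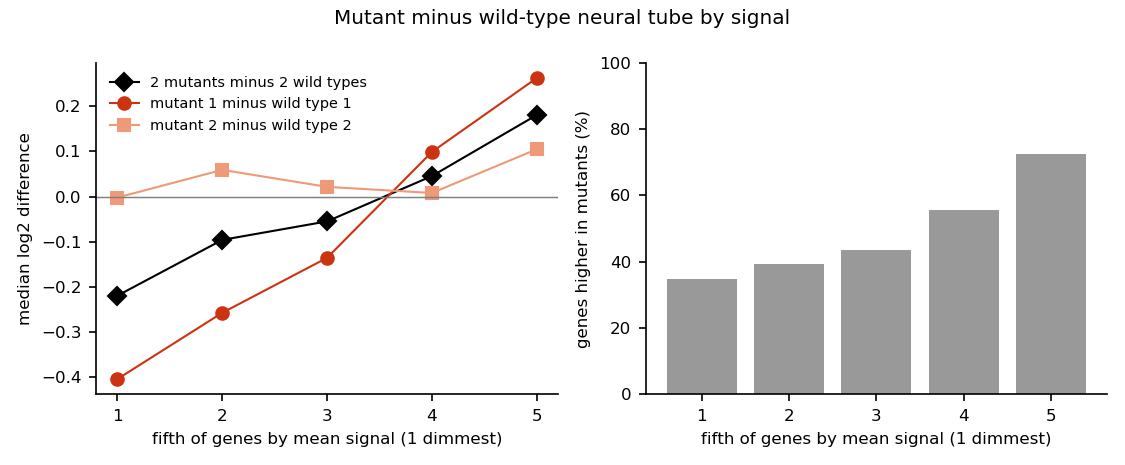
Mutant minus wild-type differences in neural tube over 5 equal bins of mean signal. Left, the median log2 difference of all genes in each bin for the groups (black) and for the arrays of each slide row (red); right, the share of genes with a higher mutant mean, which climbs from 34.7% to 72.6%.

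Gmnn itself was at 12.35 and 12.24 in wild types 1 and 2 and at 12.11 and 11.80 in mutants 1 and 2. Both mutants lay below both wild types, and the difference was small, -0.35 ± 0.25 (SE; limma adjusted p = 0.922). The probe lies on chromosome 13 at 24843715 to 24843774 of mm9. The labels do not say which exons were floxed, so a transcript that lacks them may still meet this probe, and the value does not measure how much Geminin was lost. In paraxial tissue of the same embryos the difference was -0.63.

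Cyp26b1, which encodes an enzyme that degrades retinoic acid, stood higher in both mutants. It was at 9.55 and 9.48 in the wild types and at 12.95 and 11.73 in the mutants. Both mutants were more than 2 units above both wild types, with mutant 1 the higher. The means were 9.52 ± 0.06 and 12.34 ± 0.86 (SD, n = 2 each), a 7.09-fold difference of 2.83 ± 0.43 (SE; limma adjusted p = 0.577), and it stayed between 2.22 and 3.43 in all 20 other settings. In paraxial tissue it was 1.57. Its probe lies on chromosome 6 at 84521952 to 84522011.

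Eda2r, a receptor of the TNF family and a p53 target, was at 7.54 and 6.87 in the wild types and at 8.94 and 9.01 in the mutants. The mutants lay close together and above both wild types. The difference was 1.77 ± 0.38 (SE; limma adjusted p = 0.922), or 3.40-fold, with both of its probes in the same direction. In paraxial tissue it was larger, 2.65.

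The other genes that led the higher side by p were Crtap, Pter, Slc20a2, Ddx20, Mlec, Poglut3, Fam122b and Tmem64, with differences between 0.99 and 1.36. Crtap, a collagen prolyl hydroxylation cofactor, was at 11.61 and 11.80 in the wild types and 12.76 and 12.62 in the mutants. Ddx20, a helicase of the SMN complex, was at 10.25, 9.82, 11.45 and 11.11 in wild types 1 and 2 and mutants 1 and 2. Mlec, an endoplasmic reticulum lectin, was at 8.75, 8.68, 10.11 and 9.96. In each of these the arrays of a genotype lay close together and both mutants lay above both wild types. Slc20a2 encodes a phosphate transporter (difference 1.18 ± 0.28), but on its other probe the difference was 0.26 and the groups overlapped. The groups also overlapped on the other probe of Pter (0.70). Fam122b was carried by 1 of its 2 probes, so the gene's difference of 1.11 depends on the probe.

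The genes that led the lower side by p were dim. Nlrp10, S1pr5, Prok1, Olfr1204, Ctss, Ppm1k, Ighv8-8, Ccdc187, Cyp2c29 and Mtus1 were well above background on both wild-type arrays and on neither mutant array, so only a bound is given: the wild-type mean over the mutants' detection floor, taken on each array as the higher of the probe's own signal and the dimmest signal still well above background. Ctss, the lysosomal protease cathepsin S of macrophages and antigen-presenting cells, was at 8.60 and 8.11 in the wild types and at 4.98 and 4.83 in the mutants, at least 3.00-fold lower. S1pr5, a sphingosine-1-phosphate receptor, was at 7.18 and 7.27 against 5.32 and 4.68, at least 1.37-fold lower. Nlrp10 was at 7.63 and 7.82 against 4.97 and 5.30, at least 1.94-fold lower (limma adjusted p = 0.452). The bounds of the other 7 lay between 1.01 and 1.67.

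Among genes well above background on all 4 arrays, a filter chosen after the values were seen, the lower side was led by Olfr74, Hbb-bt, Bmpr1b, Gnb3, Olfr578, Sema4f, Rbp7, Fkbp6, Ccdc185 and Lmtk3. Bmpr1b, a type I BMP receptor, was at 11.78 and 11.31 in the wild types and 10.07 and 10.56 in the mutants, a difference of -1.22 ± 0.28 (SE) with both probes lower. Sema4f, a membrane semaphorin, was at 8.86 and 9.67 against 7.31 and 7.45 (-1.89 ± 0.48), and its paraxial difference was -2.56. Hbb-bt, an adult beta-globin, was at 12.77 and 12.76 against 10.52 and 11.35 (-1.83 ± 0.40). The wild types lay above the mutants in all of these. Globin genes share sequence, so the value of Hbb-bt may include other globin genes, and the 14 erythroid markers measured had a median difference of 0.01, with 7 higher and 7 lower (-0.12 with quantile and -0.18 with cyclic loess normalization).

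**Figure D2:**
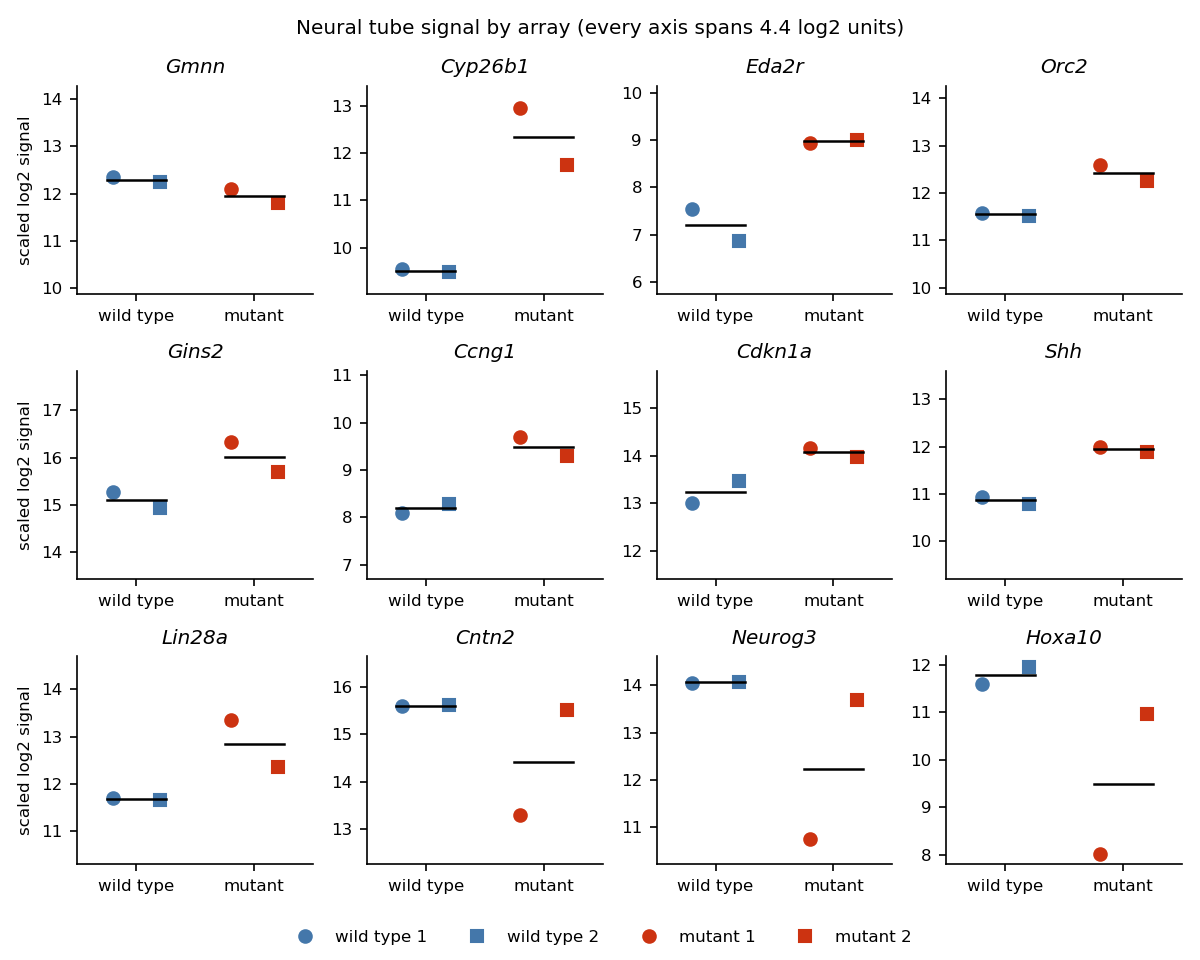
Scaled log2 signal of 12 genes on the 4 neural tube arrays, with wild type in blue, mutant in red, replicate 1 as circles, replicate 2 as squares and the group mean as a bar. Cyp26b1 (9.48 to 9.55 against 11.73 to 12.95) and Eda2r separate by genotype, while Cntn2, Neurog3 and Hoxa10 are low mainly on mutant 1.

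The genes that license and fire replication origins stood higher almost throughout. Licensing genes encode the origin recognition complex, Cdc6, Cdt1 and the MCM helicase, and firing genes encode Cdc45, the GINS complex and the kinases and scaffolds that start it. All 29 listed genes were measured on every array: 28 had a higher mutant mean and 1 (Mtbp, -0.15) a lower one, and in 18 the groups did not overlap, all with the mutants above, against 16.5% of all genes. The median difference was 0.50, against -0.01 over all genes. The level of the list was -0.27 and -0.19 in wild types 1 and 2, 0.45 in mutant 1 and 0.02 in mutant 2.

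The sizes varied, from 0.08 to 1.04 over the licensing genes and from -0.15 to 0.90 over the firing genes. Orc2 was at 11.58 and 11.52 in the wild types and 12.60 and 12.25 in the mutants (0.87 ± 0.25, SE). Orc1, the large ATPase subunit, was at 7.97 and 8.04 against 9.47 and 8.62 (1.04 ± 0.37). Gins2 was at 15.28 and 14.94 against 16.33 and 15.69 (0.90 ± 0.31). For these 3 subunits the mutants lay above the wild types, with mutant 1 the higher of the pair each time. The MCM subunits measured stood higher by 0.27 to 0.57, with Mcm4 at 0.57 ± 0.27 and Mcm3 at 0.51 ± 0.26. Cdc45 (0.70 ± 0.30), Mcm10 (0.74 ± 0.30) and Gins4 (0.59 ± 0.26), which build the active helicase, had non-overlapping groups too. Cdt1, the direct partner of Geminin, was at 12.20 and 12.67 in the wild types and 12.84 and 12.55 in the mutants, where the groups overlap (0.27 ± 0.26).

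At an unadjusted p of 0.05 stood 4 of the 29 members (Orc1, Orc2, Gins2 and Mcm10), against 1.52% of all genes, and at the adjusted threshold 0. The mean signal of the list was 12.62, against 11.21 over all genes tested. With quantile normalization the list's median was 0.38 and with cyclic loess 0.36. Without both arrays of mutant embryo 1 it was 0.27, with 24 of 29 higher. In paraxial tissue of these embryos the median of the list was 0.35.

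Many of these genes share a promoter feature. Promoters were read from RefSeq (GRCm38.p6) as 250 bases before to 50 after the start, and 23 of the 29 genes had an entry. The binding letters of the E2F factors, which drive S-phase genes, were searched as TTTCCCGC, TTTCGCGC, TTTGCCGC and TTTGGCGC on both strands. A match stood in 11 of the 23 genes (47.8%), against 3.93% of the 13802 tested genes with an entry and 2.6% of all 27025 genes with an entry. For 3 of them the sequence is shown, with the match in capitals, because they carry the shared letters at different distances. Each line gives the 250 bases before the start, 5′ to 3′ on the strand of the gene. All 3 lie on the plus strand of GRCm38.p6. Orc1 lies at chr4:108579204-108579453 with its match starting 27 bases before the start. Cdc6, which loads MCM with Cdt1, lies at chr11:98907901-98908150 with the match 138 bases before it, and Mcm5 at chr8:75109259-75109508 with 2 matches on opposite strands that overlap in part.
Orc1: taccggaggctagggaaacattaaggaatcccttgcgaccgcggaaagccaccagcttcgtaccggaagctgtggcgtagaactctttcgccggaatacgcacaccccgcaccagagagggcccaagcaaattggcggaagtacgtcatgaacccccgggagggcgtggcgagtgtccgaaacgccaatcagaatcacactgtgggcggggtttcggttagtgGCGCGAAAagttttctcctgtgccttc
Cdc6: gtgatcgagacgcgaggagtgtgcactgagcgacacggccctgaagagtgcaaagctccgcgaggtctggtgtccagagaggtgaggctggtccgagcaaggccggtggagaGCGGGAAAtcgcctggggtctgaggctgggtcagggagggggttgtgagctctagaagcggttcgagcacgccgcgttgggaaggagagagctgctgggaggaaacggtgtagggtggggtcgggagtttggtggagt
Mcm5: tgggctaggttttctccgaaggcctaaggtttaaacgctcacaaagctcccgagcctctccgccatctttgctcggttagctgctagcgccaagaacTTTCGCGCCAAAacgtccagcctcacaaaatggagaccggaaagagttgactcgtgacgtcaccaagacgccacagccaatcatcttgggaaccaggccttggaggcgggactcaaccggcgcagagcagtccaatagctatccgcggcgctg
The signal of Cdc6 was 10.22 and 11.33 in the wild types and 11.46 and 11.02 in the mutants, and that of Mcm5 was 11.97 and 12.67 against 12.85 and 12.33. Both overlapped between genotypes, while Orc1 did not.

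Genes activated by p53, the factor that answers DNA damage and replication faults, stood higher more often than lower. Of 39 measured, 29 stood higher and 10 lower, and the groups did not overlap in 13 with the mutants above (against 16.5% of all genes) and in 1 with the mutants below. The median was 0.25. It was 0.58 between mutant 1 and wild type 1 and 0.05 between mutant 2 and wild type 2. Without both arrays of mutant embryo 1 it was 0.14, and without those of mutant embryo 2 it was 0.43, so the size differs by the embryo left out.

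The members that separated best were Eda2r, given above, and Ccng1. Ccng1, which encodes cyclin G1, was at 8.09 and 8.29 in the wild types and 9.69 and 9.28 in the mutants, a 2.46-fold difference of 1.30 ± 0.36 (SE; limma adjusted p = 0.922). Cdkn1a, the cell cycle inhibitor p21, was at 13.01 and 13.47 against 14.17 and 13.97 (0.83 ± 0.36). In both genes the mutants lay above the wild types on every array. Rps27l (0.59 ± 0.27) and Ei24 (0.54 ± 0.26) also had non-overlapping groups. Tnfrsf10b, a death receptor, differed by 1.19 ± 0.62 but was at 8.19 and 10.12 in the wild types against 10.71 and 9.98, so the groups overlap. Mdm2, the feedback ligase of p53, differed by -0.11 ± 0.24, and the cell death genes Bax (0.12 ± 0.35) and Bbc3 (0.39 ± 0.31) overlapped between genotypes. In paraxial tissue the list's median was 0.48, with 2.40 for Ccng1 and 1.99 for Pmaip1, whose neural tube difference was 0.63.

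The p53 half-site was searched by its usual consensus on both strands. It stood in a promoter of 13 of the 34 listed genes with an entry (38.2%), against 8.48% of tested genes and 9.55% of all genes with an entry. Ccng1 and Ei24 are shown because their groups separated and their windows hold it. Among the other members named above with an entry, Cdkn1a and Rps27l also had a match, as did Mdm2 and Bax. Eda2r and Bbc3 had none. Whether a match goes with the mutant difference was not tested. Ccng1 lies at chr11:40755287-40755536 and Ei24 at chr9:36797335-36797584, both on the minus strand, with the half-site in capitals 185 and 10 bases before the start.
Ccng1: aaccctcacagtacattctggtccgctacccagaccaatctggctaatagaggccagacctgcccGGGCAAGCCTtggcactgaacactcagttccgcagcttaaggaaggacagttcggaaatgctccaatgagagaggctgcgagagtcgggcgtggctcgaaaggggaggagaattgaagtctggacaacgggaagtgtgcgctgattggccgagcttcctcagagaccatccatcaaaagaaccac
Ei24: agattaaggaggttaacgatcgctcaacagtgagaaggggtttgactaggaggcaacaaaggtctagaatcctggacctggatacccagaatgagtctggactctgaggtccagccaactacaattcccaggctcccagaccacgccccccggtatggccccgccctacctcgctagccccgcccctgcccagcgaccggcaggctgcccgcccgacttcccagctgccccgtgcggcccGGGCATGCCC
A match describes the letters only, and binding was not measured.

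Cell cycle genes were higher more often than lower. Of 29 genes of G2 and mitosis, 27 stood higher and 2 lower, with a median of 0.29 and 12 groups that did not overlap with the mutants above (against 16.5%). The kinetochore gene Ndc80 was at 12.84 and 12.64 in the wild types and 13.57 and 13.27 in the mutants (0.68 ± 0.27, SE), and the spindle checkpoint kinase Ttk was at 10.47 and 10.67 against 11.62 and 11.09 (0.78 ± 0.34). Mki67, the proliferation marker, differed by 0.66 ± 0.36. Of 31 genes of G1 and S phase, 21 stood higher and 10 lower, with a median of 0.14 that was -0.00372 with cyclic loess normalization and -0.062 when wild type embryo 1 was left out. E2f5, an E2F factor, was at 9.59 and 9.87 against 10.82 and 10.38 (0.87 ± 0.28). Cdkn2c, the CDK inhibitor p18, was at 7.57 and 7.90 in the wild types and 5.35 and 5.92 in the mutants, not well above background on either mutant array, so at least 1.95-fold lower.

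Replication stress and repair genes and core apoptosis genes gave smaller values. Of 27 stress and repair genes, 20 stood higher and 7 lower, with a median of 0.21. It was 0.58 between mutant 1 and wild type 1 and -0.33 between mutant 2 and wild type 2, pairs that share only the replicate number. The levels were -0.26 and 0.09 in wild types 1 and 2 and 0.31 and -0.13 in mutants 1 and 2. By level, mutant 2 thus lay below wild type 2 but above wild type 1. Without both arrays of mutant embryo 1 the median was -0.076, and without those of wild type embryo 1 -0.084. Parp1, a sensor of DNA breaks, differed by 0.45 ± 0.24 and Chek1, the checkpoint kinase, by 0.48 ± 0.34. Of 16 core apoptosis genes, 13 stood higher, with a median of 0.25 that was 0.15 with quantile and 0.12 with cyclic loess normalization. Leaving out wild type embryo 1 gave 0.079 and leaving out mutant embryo 1 gave 0.13. Bid, which links death receptors to mitochondria, was at 9.62 and 8.56 against 10.95 and 9.82 (1.29 ± 0.49).

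Neuronal genes were low on mutant 1 and not on mutant 2. Of 30 genes of differentiated neurons measured, 26 had a lower mutant mean and 4 a higher one, with a median of -0.47. The groups did not overlap in 8 of the 30 with the mutants below (against 15.4% of all genes) and in 2 with the mutants above. The level of the list was 0.39 and 0.08 in wild types 1 and 2, -0.74 in mutant 1 and 0.27 in mutant 2. Without both arrays of mutant embryo 1 the median was 0.07, with 13 lower and 17 higher. In this bulk tissue, fewer cells of a type and less RNA per cell cannot be told apart.

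Cntn2, an adhesion molecule of commissural and other new axons, shows the pattern: it was at 15.60 and 15.61 in the wild types, 13.30 in mutant 1 and 15.51 in mutant 2. Stmn4 (14.74, 14.81, 13.52 and 14.56) and Syt1 (11.29, 11.34, 9.90 and 11.13) had the same order. St18, a zinc-finger factor of early neurons, was low on both mutants (7.61 and 7.05 against 4.96 and 6.64), at least 1.48-fold lower since neither mutant array was well above background. The 4 genes with higher means were Tubb3, Gap43, Snap25 and Nrcam, at differences of 0.12 to 0.34, of which Snap25 turned to -0.056 with quantile and -0.078 with cyclic loess normalization.

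Proneural factors, which start neurogenesis, were likewise low on mutant 1: 15 of 19 had a lower mean, with a median of -0.43 that was -0.95 between mutant 1 and wild type 1 and 0.07 between mutant 2 and wild type 2. Without both arrays of mutant embryo 1 it was -0.04. Neurog3 was at 14.05 and 14.07 in the wild types, 10.76 in mutant 1 and 13.70 in mutant 2 (-1.83 ± 0.83, SE). Atoh1, which marks the dorsalmost interneuron progenitors, was at 9.52 and 9.66, then 4.84 and 9.09. On mutant 1 it was not above background. Spinal interneuron factors had a median of -0.95 (17 of 20 lower), which was -0.16 without both arrays of mutant embryo 1 and -0.48 with normexp background correction. Vsx1 (7.51 and 6.74 against 4.65 and 6.01, at least 1.28-fold lower) and the V2b factors Gata2 (9.13, 8.91, 7.19 and 8.86) and Tal1 (12.60, 12.89, 11.39 and 12.30) led the list. Motor neuron genes had a median of -0.37 (3 higher, 1 of them without overlap, and 10 lower), which was 0.097 without that embryo and -0.16 with normexp. The motor neuron determinant Mnx1 was at 9.0 and 10.64 in the wild types against 6.03 and 8.16 in the mutants, with mutant 1 not well above background.

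Neural progenitor genes, in contrast, had a median of 0.08, with 10 higher and 8 lower, and this median was -0.07 with quantile and with cyclic loess normalization. Sox9, a progenitor and gliogenic factor, was the member with the smallest p: 11.50 and 11.60 in the wild types, 9.80 in mutant 1 and 11.02 in mutant 2 (-1.14 ± 0.46, SE). Notch pathway genes were even, 10 higher and 10 lower (median -0.01). Hes6, which acts with proneural factors, was at 15.40, 15.37, 14.62 and 15.19.

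**Figure D3:**
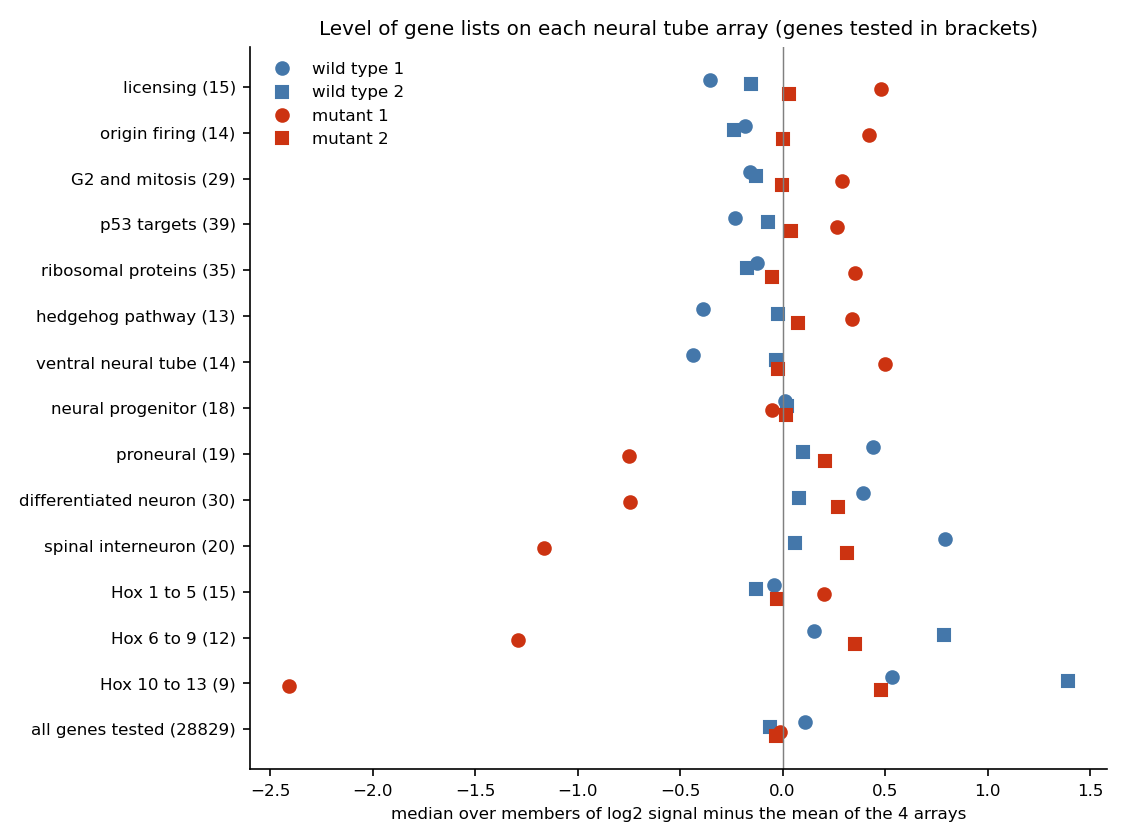
Level of each gene list on the 4 neural tube arrays, as the mean over its tested members of the log2 signal minus the gene's mean over the 4 arrays. The values are means, although the axis label reads median. Licensing and firing genes lie highest on mutant 1 and next on mutant 2, while neuronal, interneuron and posterior Hox genes are low on mutant 1 alone (-0.74 for differentiated neuron, -2.41 for Hox 10 to 13).

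Ventral genes and hedgehog targets stood higher on average. Shh, the ventral signal made by floor plate and notochord, was at 10.94 and 10.79 in the wild types and 12.00 and 11.88 in the mutants. Both mutants lay above both wild types, a 2.10-fold difference of 1.07 ± 0.30 (SE; limma adjusted p = 0.922). Of 14 ventral neural tube genes, 12 stood higher and 2 lower (median 0.53), and in 4 the groups did not overlap with the mutants above (against 16.5%). The floor plate gene Ferd3l differed by 0.52 ± 0.22. Nkx2-9 was at 8.82 and 10.56 against 12.47 and 10.03 (1.56 ± 0.90), so its wild types and mutants overlap. The median was 0.87 between mutant 1 and wild type 1 and -0.28 between mutant 2 and wild type 2, pairs that share only the replicate number. It was 0.15 without both arrays of mutant embryo 1. The levels were -0.44 and -0.03 in wild types 1 and 2 and 0.50 and -0.02 in mutants 1 and 2. By level, mutant 2 thus lay close to wild type 2 and above wild type 1.

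Of 13 hedgehog pathway genes, 12 stood higher (median 0.39), 6 of them without overlap (against 16.5% of all genes). Ptch1, the receptor that hedgehog signalling induces, was at 12.80 and 13.05 in the wild types and 13.82 and 13.53 in the mutants (0.74 ± 0.24, both probes). Gli1, another target, was at 10.43, 12.00, 13.09 and 11.69, so wild type 2 lay above mutant 2. Dorsal genes had a median of -0.14 (8 higher, 11 lower), which was -0.00177 with normexp background correction and 0.086 without both arrays of mutant embryo 2. Among them the dorsal factor Pax7 was at 11.08 and 11.09 against 9.76 and 10.22 (-1.09 ± 0.54). Intermediate domain genes had a median of -0.18 (3 higher, 7 lower), which was -0.066 with cyclic loess normalization, 0.26 without the array of wild type 2 and 0.11 without that of mutant 1. Neither list thus held its direction.

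Apart from Cyp26b1, retinoic acid genes were mixed. Of 19 measured, 11 stood higher and 8 lower, with a median of 0.27 that was 0.13 with quantile and 0.10 with cyclic loess normalization. Aldh1a2, the enzyme that makes retinoic acid in the somites beside the tube, was at 11.68 and 13.01 in the wild types and 13.51 and 13.13 in the mutants (0.97 ± 0.44, SE). Cyp26a1 was at 8.59 and 8.58 against 7.01 and 8.20, and it and Cyp26c1 were each well above background on only 1 of the mutant arrays. Crabp1, a retinoic acid binding protein, differed by 0.62 ± 0.35. Rarb, a receptor gene that retinoic acid induces, differed by 0.42 ± 0.49, with 12.66 and 11.99 in the wild types against 12.92 and 12.57.

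Among Wnt targets (7 higher, 6 lower, median 0.034, and 0.21 with quantile normalization), Lef1, a nuclear mediator of Wnt signals, was at 12.01 and 12.39 in the wild types and 13.35 and 13.20 in the mutants, a 2.10-fold difference of 1.07 ± 0.28 (limma adjusted p = 0.922). Tcf7 differed by 0.76 ± 0.39 and Sfrp2 by 0.46 ± 0.23. These named Wnt targets all stood higher, but more members separated downward. Of the 13, the groups did not overlap in 2 with the mutants above (against 16.5% of all genes). In 4 they did not overlap with the mutants below (against 15.4%). Among the 10 well above background on all 4 arrays, these counts were 2 and 2. BMP and TGF-beta targets split 5 and 5 (median 0.01), while of 15 FGF targets 12 stood higher (median 0.11). With quantile normalization 9 FGF targets stood higher and 6 lower, and with cyclic loess 8 and 7, with a median of 0.09 in each. Fgf15 was at 11.49 and 11.03 against 12.88 and 11.71 (1.03 ± 0.57).

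Hox genes were ordered by paralog number. Of 15 genes of paralogs 1 to 5, 10 stood higher and 5 lower, with a median of 0.23 that was 0.041 with quantile normalization and 0.013 without both arrays of mutant embryo 1. Of 12 genes of paralogs 6 to 9, 1 stood higher (Hoxb8) and 11 lower, with a median of -0.91. All 9 measured genes of paralogs 10 to 13 stood lower, with a median of -2.30, though Hoxa13 was at 0.084 as the mean over its probes. Mutant 1 was not well above background in 5 of the 9, and over the other 4 the median was -1.31, with 1 not overlapping. With normexp the median of the 9 was -1.39. The groups did not overlap in 4 of the 12 and 3 of the 9, against 15.4% of all genes.

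The lowest values were those of mutant 1. Hoxa10 was at 11.61 and 11.97 in the wild types, 8.02 in mutant 1 and 10.96 in mutant 2 (-2.30 ± 0.83, SE; limma adjusted p = 0.922). Hoxa9 was at 14.58, 15.10, 11.84 and 14.12 (-1.86 ± 0.67), and Hoxd9 at 14.29, 14.57, 10.96 and 13.82 (-2.04 ± 0.81). In all 3 genes both mutants lay below both wild types, mutant 1 by much more than mutant 2. Between mutant 1 and wild type 1 the median was -3.59 for paralogs 10 to 13 and -1.31 for paralogs 6 to 9, and between mutant 2 and wild type 2 it was -1.0 and -0.52. Hoxd10 and Hoxd11, picked after their values were seen, had mutant 1 not above background (6.23 and 7.06) and mutant 2 at 11.83 and 11.95, beside wild types at 12.00 and 11.74 for Hoxd10 and 12.01 and 13.13 for Hoxd11.

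The level of the list of paralogs 10 to 13 was 0.54 and 1.39 in wild types 1 and 2, -2.41 in mutant 1 and 0.48 in mutant 2. Without both arrays of mutant embryo 1 the medians were 0.02 for paralogs 6 to 9, with 6 higher and 6 lower, and -0.39 for paralogs 10 to 13, with 9 of 9 lower. Paraxial tissue of mutant embryo 1 was low as well: over all 8 arrays, the level of paralogs 10 to 13 was -0.89 there against -2.55 in its neural tube, and 0.37 in paraxial tissue of mutant embryo 2. The axial level that was captured is not in the labels, and its part was not tested.

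**Figure D4:**
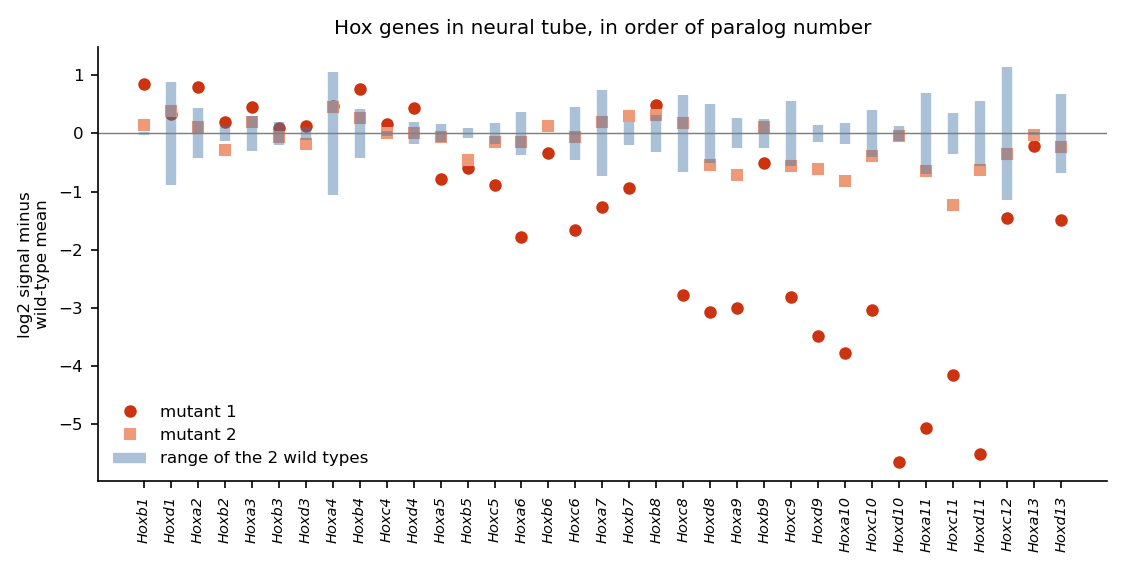
Hox genes reported here, in order of paralog number: log2 signal of mutant 1 (circles) and mutant 2 (squares) minus the wild-type mean, with the range of the 2 wild types as a blue bar. Mutant 1 is near or above the wild types up to paralog 4 and more than 1 unit below their mean from paralog 8 on, except Hoxb8, Hoxb9 and Hoxa13, while mutant 2 lies nearer to them, below their mean in all 9 genes from paralog 10 on.

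Caudal progenitor genes (7 higher, 5 lower, median 0.44, and -0.02 without both arrays of mutant embryo 1) included Sall4, a zinc-finger factor of embryonic stem cells and caudal progenitors, at 14.09 and 14.20 in the wild types and 15.41 and 14.62 in the mutants (0.87 ± 0.34). Nkx1-2, which marks the preneural caudal epiblast, was at 12.82 and 12.39 against 13.45 and 13.09 (0.67 ± 0.26). Lin28a, an RNA-binding protein that blocks let-7 maturation and declines as embryos mature, was at 11.70 and 11.65 in the wild types and 13.35 and 12.35 in the mutants. Both mutants lay above both wild types, a difference of 1.17 ± 0.36 (SE; limma adjusted p = 0.922), and its paralog Lin28b overlapped (10.70, 11.90, 12.75 and 11.76). The pluripotency list as a whole had a median of -0.36, with 4 higher and 7 lower, but it was -0.00535 with normexp background correction and 0.16 without the array of mutant 1.

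Chromatin genes that Geminin is known to meet had medians near 0. SWI/SNF subunits split 12 and 11 (median 0.04) and Polycomb genes 17 and 10 (median 0.069, and -0.15 when wild type embryo 1 was left out). The groups did not overlap with the mutants above in 6 of 23 SWI/SNF and 8 of 27 Polycomb genes (against 16.5%). They did not overlap with the mutants below in 2 and 1 (against 15.4%). With quantile normalization these counts were 2 above and 3 below for SWI/SNF, and 7 above and 2 below for Polycomb. Pcgf6, a subunit of a variant Polycomb complex, was at 11.98 and 11.19 against 13.15 and 12.21 (1.09 ± 0.42). Genes of planar polarity and neural tube closure had a median of 0.12 (13 higher, 4 lower) that was 0.036 with cyclic loess normalization. Ptk7, a planar polarity receptor, was at 11.49 and 12.10 against 12.62 and 12.60 (0.81 ± 0.27), and Vangl1 and Cobl differed by 0.95 ± 0.41 and 0.73 ± 0.32. Axon guidance genes split 12 and 13. Robo3, the receptor that lets commissural axons cross the midline, was at 14.14 and 12.73 in the wild types, 9.27 in mutant 1 and 12.69 in mutant 2.

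Some lists of bright genes lost most of their difference under normalization by signal. Ribosomal protein genes were higher in 34 of 35, with 17 not overlapping (against 16.5% of all genes), but their median of 0.29 was 0.10 with quantile and 0.05 with cyclic loess normalization. Imprinted genes were higher in 14 of 19, with 9 not overlapping (against 16.5%), and their median of 0.34 was 0.06 with cyclic loess. Within them Impact was at 12.39 and 12.32 against 13.32 and 13.06 (0.84 ± 0.25), and Peg10 at 13.33 and 13.03 against 14.42 and 13.94 (1.00 ± 0.41). Glycolysis and hypoxia genes were higher in 19 of 25, with a median of 0.24 that was 0.12 with quantile and 0.049 with cyclic loess normalization, and 0.032 when wild type embryo 1 was left out. Stress response genes, higher in 15 of 16, kept more of their median of 0.27, which was 0.22 with quantile and 0.19 with cyclic loess normalization. It was 0.12 without both arrays of mutant embryo 1. Among them Asns, an amino acid response target, differed by 0.75 ± 0.32. Immediate early genes had a median of -0.13, which was 0.01 with quantile normalization and 0.08 with normexp, and interferon genes one of -0.07, which was 0.02 with median scaling. Of these, Ier2 (0.75 ± 0.29) and Ifitm3 (1.18 ± 0.36) stood higher and Psmb8 (-0.99 ± 0.39) lower without overlap.

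Markers of other tissues differed between arrays too, and their part in the results above was not tested. Surface ectoderm markers were higher in 15 of 20 (median 0.35, 9 not overlapping against 16.5%), with list levels of -0.32 and -0.07 in wild types 1 and 2 and 0.22 and 0.17 in mutants 1 and 2. Leaving out wild type embryo 1 gave a median of 0.18 and leaving out wild type embryo 2 one of 0.73. The keratin Krt18 was at 10.74 and 12.02 against 12.81 and 12.29 (1.17 ± 0.48), Krt5 at 10.23 and 10.41 against 11.15 and 11.19 (0.85 ± 0.35), and Epcam at 7.83 and 8.31 against 9.09 and 9.02 (0.99 ± 0.43), while Dsp was not well above background on any neural tube array and Cdh1 and Grhl1 did not pass the filter. Krt14 stood lower without overlap (-0.37 ± 0.23), and Wnt7b, which neural tube also expresses, was at 14.82, 12.84, 10.48 and 13.60 in wild types 1 and 2 and mutants 1 and 2. In paraxial tissue this list's median was 1.27. Macrophage markers were lower in 9 of 12 (median -0.57, which was -0.27 with normexp and -0.17 without both arrays of mutant embryo 1), with levels of 0.38 and 0.08 in the wild types and -0.53 and 0.07 in the mutants, and Mrc1 and C1qc did not pass the filter. Tyrobp was at 12.70, 12.92, 11.51 and 12.45 and Lyz2 at 9.78, 9.08, 8.02 and 8.13, beside the low cathepsin S given above. Cd68 (7.86, 7.45, 8.38 and 8.21) and Csf1r (15.36, 15.26, 15.54 and 15.47) stood higher on both mutants.

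Sclerotome markers were lowest on wild type 1: the levels were -0.84, 0.70, -0.04 and 0.18 in wild types 1 and 2 and mutants 1 and 2, and Meox1 was at 6.44, 10.98, 10.53 and 10.11. Muscle markers lay at -0.10, 0.22, -0.46 and 0.34, and Mylpf, Cav3, Sln and Myoz2 were not well above background on any neural tube array. Endothelial markers had a median of -0.17 (5 higher, 15 lower; levels -0.35, 0.61, -0.40 and 0.14). Its direction turned without the array of wild type 2 (0.20) and without that of mutant 1 (0.10), and it was -0.60 without that of mutant 2. Neural crest markers had a median of -0.10 (levels -0.02, 0.23, -0.57 and 0.36), and 0.19 without both arrays of mutant embryo 1. The endothelial, muscle, crest and sclerotome levels were lower on the replicate 1 array than on the replicate 2 array in both genotypes.

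Whether the mutant difference depends on the tissue was tested as the neural tube difference minus the paraxial difference in the same fit. At an adjusted p of 0.05, 0 of 28829 genes were called (0%), and the smallest adjusted p was 0.0917. At an unadjusted p of 0.05, 546 genes had the more positive difference in neural tube (1.89%) and 943 the more negative one (3.27%), 1489 in all. Cyp26b1 was 1.26 more positive in neural tube (limma adjusted p = 0.887), and for Eda2r the value was -0.88 (adjusted p = 0.955). Cpne6, a copine of neurons, led the positive side: its neural tube values were 9.64, 9.65, 9.33 and 9.60, a difference of -0.18 ± 0.44, and its paraxial difference was -3.86, so the dependence lies in paraxial tissue. Opn3, Itm2a and Tmx4 followed with 2.03, 1.46 and 1.45. On the negative side the rule named S1pr5, Ccdc187, Nlrp10 and Olfr1204, which were not well above background on either mutant neural tube array, so no size is given. No difference given here is therefore shown to be particular to the neural tube.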

How the data were processed

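RNA from laser-captured neural tube was isolated with the PicoPure kit and its cDNA labelled with Cy5 by the Kreatech ULS kit, per the labels' protocols. The deposited values are intensities of 1 channel, 1 file per array, extracted with Agilent Feature Extraction 11.0.1.1 per the submitters' processing notes, on an array annotated on mm9 per the file headers. All 8 arrays shared 1 slide and 1 scan, with replicate 1 in row 1 and replicate 2 in row 2. The authors' deposited value table held the same intensities to within 0.497%.

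Control spots (3671 of 62976) and outlier spots were left out, spots of a probe averaged, and the log2 of the processed signal set to a common 75th percentile. A probe was kept (42754 were) when some group had it well above background on each of its arrays, and the brightest stood for a gene. Probes were named by accession (26045), symbol (3200) or synonym (930) through RefSeq tables, and 25489 kept the name in the files. With limma 3.58.1 in R 4.3.3, the means of the 4 groups were estimated in 1 model of the 8 arrays, treating embryo as a random block. Its correlation was 0.603, with 4 residual degrees of freedom and 2.93 from the eBayes prior, and p-values were adjusted by Benjamini-Hochberg. The fit was tested on simulated data. The precision is limited by 2 arrays per group.

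Genes named are Gmnn, Cyp26b1 and Eda2r, up to 10 genes per direction by the smallest p among non-overlapping genes above background in 1 neural tube group, up to 4 per list, and 4 per direction for tissue dependence. A few list members are also named for their role or after their values were seen. Some genes counted in the lists are not reported here by name. The members and lists were chosen with earlier results of these data known. Differences are mutant minus wild type, and non-overlap means that both mutant arrays lie on 1 side of both wild-type arrays. The alternatives were other scaling, background, filter, probe, block and sample choices and leaving out each array and each embryo. Counting lists again in each of them, and the filter on lower genes above background on all 4 arrays, were chosen after seeing the data.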

Additional observations from a re-analysis of the deposited data

How the results depend on the processing

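In all 20 alternatives, 0 genes passed an adjusted p of 0.05 in neural tube, with smallest adjusted p-values between 0.102 (cyclic loess) and 0.976 (normexp). At an unadjusted p of 0.05 the counts were 707 higher and 238 lower with normexp, 652 and 444 with quantile normalization, 702 and 763 with no embryo block and 249 and 633 with the 4 neural tube arrays alone. Leaving out an array or an embryo gave 84 to 2101 higher and 434 to 1404 lower. Tissue dependence was called in 4 genes with cyclic loess and in 0 to 6 when an array or embryo was left out, with 6 without both arrays of mutant embryo 1. Median scaling shifted the median of all genes to 0.08 and normexp to 0.07, with 58% and 58.7% of genes higher.

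Leaving out an array or embryo gave medians of 0.27 to 0.69 for licensing and firing genes, 0.14 to 0.43 for p53 targets, -0.95 to 0.067 for differentiated neuron genes, 0.15 to 0.63 for ventral genes, -1.72 to 0.021 for Hox 6 to 9 and -3.77 to -0.39 for Hox 10 to 13. The ends nearest 0 came without mutant embryo 1. Cpne6 was at 0.014 with cyclic loess and with normexp, Snap25 at -0.056 with quantile and -0.078 with cyclic loess normalization, and Hoxa13 at 0.084 as the mean over probes. When an array or embryo was left out, the ranges were -0.60 to 0.25 for Cpne6, -2.76 to 0.057 for Slc5a7, -0.090 to 1.02 for Cdc6, -0.24 to 0.47 for Gap43, -0.082 to 0.62 for Mcm5, -0.66 to 3.88 for Meox1, -0.64 to 0.33 for Mtbp, -0.050 to 0.66 for Nrcam, -0.15 to 0.64 for Snap25, -1.37 to 0.11 for Tie1 and -0.10 to 1.68 for Twist1. Slc5a7 was not well above background on mutant 1, nor Meox1 on wild type 1, so these ends rest on background values and are no measured sizes. The cause was not tested.

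The replicate number, which labels different embryos and equals the slide row, was fitted as a replicate block: 0 genes passed, with 636 higher and 1011 lower at an unadjusted p of 0.05 and a smallest adjusted p of 0.274. Deviations of arrays with the same number correlated at 0.289. Fits without an embryo used the correlation of the full fit. Background limits the dim lower genes, whose folds are bounds.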
